A study of Mus musculus with 6 samples.

Results

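The genes described here are 10 receptors, bridging proteins and adaptors with which phagocytes recognise and take up apoptotic cells: Mertk, Axl, Tyro3, Gas6, Pros1, Mfge8, Timd4, Stab1, Stab2 and Elmo1. They were chosen by gene symbol, 1 gene identifier each, from the 21954 genes of a deposited mRNA table, and all 10 averaged at least 0.5 FPKM and entered the test. FPKM is the number of sequenced fragments scaled by transcript length and by sequencing depth. Polyadenylated RNA came from thymus tissue of wild-type C57BL mice aged 5 weeks. The irradiated group was 3 mice given 6 Gy of X-rays at 800 cGy per min, and the control group was 3 mice that were not exposed. All were killed with sodium pentobarbital 24 h later, and the thymus was frozen. The labels name 3 mice and 3 libraries per group but neither the sex nor which library came from which mouse, so p-values measure only how far these libraries spread, which may be technical in part.

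Dying cells expose phosphatidylserine, a lipid that living cells keep on the inner side of the plasma membrane, and phagocytes recognise it. The receptor tyrosine kinases Tyro3, Axl and Mertk (the TAM receptors) bind it through the secreted proteins Gas6 and Pros1, integrins bind it through the secreted protein Mfge8, and Timd4, Stab1 and Stab2 bind it directly. Elmo1 is an adaptor that, with a Dock protein, activates the GTPase Rac1 so that the corpse is engulfed. In the thymus most developing thymocytes die, and resident macrophages remove them.

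Transcription start regions of the members were read from the RefSeq table of build GRCm38.p6, in which all 10 were found. A GC box (GGGCGG on either strand, a site bound by Sp1 and related factors) was found in the 250 bases before the start of 7 of the 10, against 42.7% of 17492 protein-coding genes. The 3 without one were Timd4, Stab1 and Stab2. The motif TATAAA was found in Elmo1 (12.4% of protein-coding genes) and the nuclear receptor half-site AGGTCA in Timd4 and Stab2 (12.6%). No member held the E-box CACGTG (6.6% of protein-coding genes), the AP-1 site TGANTCA (6.2%) or the PU.1-type site GAGGAAGT (2.2%). All were searched on both strands, and none of these motifs contains another. A match is a description of the letters and not of binding. The windows of a pair of TAM receptors that hold GC boxes and of a pair of direct phosphatidylserine receptors that hold none are shown 5′ to 3′ on the strand of the gene, with GC boxes (GGGCGG or its reverse complement) in capitals.
Mertk, chr2:128698665-128698914, strand +: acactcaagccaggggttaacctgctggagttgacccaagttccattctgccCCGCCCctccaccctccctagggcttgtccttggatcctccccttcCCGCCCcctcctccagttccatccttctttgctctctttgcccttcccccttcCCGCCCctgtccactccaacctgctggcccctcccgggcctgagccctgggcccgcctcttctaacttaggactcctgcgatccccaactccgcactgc
Axl, chr7:25788734-25788983, strand -: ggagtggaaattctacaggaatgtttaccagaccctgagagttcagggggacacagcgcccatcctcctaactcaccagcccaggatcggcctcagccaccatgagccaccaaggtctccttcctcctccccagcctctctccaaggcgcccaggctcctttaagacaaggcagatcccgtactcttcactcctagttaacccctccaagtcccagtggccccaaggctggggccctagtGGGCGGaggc
Timd4, chr11:46810549-46810798, strand +: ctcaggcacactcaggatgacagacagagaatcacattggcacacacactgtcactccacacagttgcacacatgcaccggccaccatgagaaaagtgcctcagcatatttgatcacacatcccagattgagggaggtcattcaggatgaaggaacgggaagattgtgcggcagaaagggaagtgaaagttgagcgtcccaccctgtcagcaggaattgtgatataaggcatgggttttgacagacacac
Stab1, chr14:31168642-31168891, strand -: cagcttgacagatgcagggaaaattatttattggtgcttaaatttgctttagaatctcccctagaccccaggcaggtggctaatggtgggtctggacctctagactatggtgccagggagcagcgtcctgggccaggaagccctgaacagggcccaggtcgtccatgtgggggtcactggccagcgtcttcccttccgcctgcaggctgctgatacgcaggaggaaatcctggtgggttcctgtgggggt

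Of the 10 genes, 8 were higher and 1 was lower in irradiated thymus at a limma adjusted p under 0.05, adjusted over all 14001 genes tested, and 6 were higher and 1 lower after median-ratio scaling or quantile normalization. Over all tested genes 42.4% were higher and 20.9% lower, so a call alone says little here. The split over all genes was 4655 higher and 4558 lower after median-ratio scaling and 3501 and 4403 after quantile normalization. The groups did not overlap in 9 of the 10, against 70.8% of all genes. What set the members apart from one another was size: log2 fold changes ran from 4.44 for Stab1 to -0.68 for Elmo1, with a median of 2.43, against 0.40 over all tested genes. That median of all genes was 0.02 after median-ratio scaling and -0.07 after quantile normalization, and the members' median was then 2.05 and 2.19. Fold changes below are log2(FPKM + 0.1) in irradiated minus control libraries, with limma's standard error (SE).

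**Figure D1:**
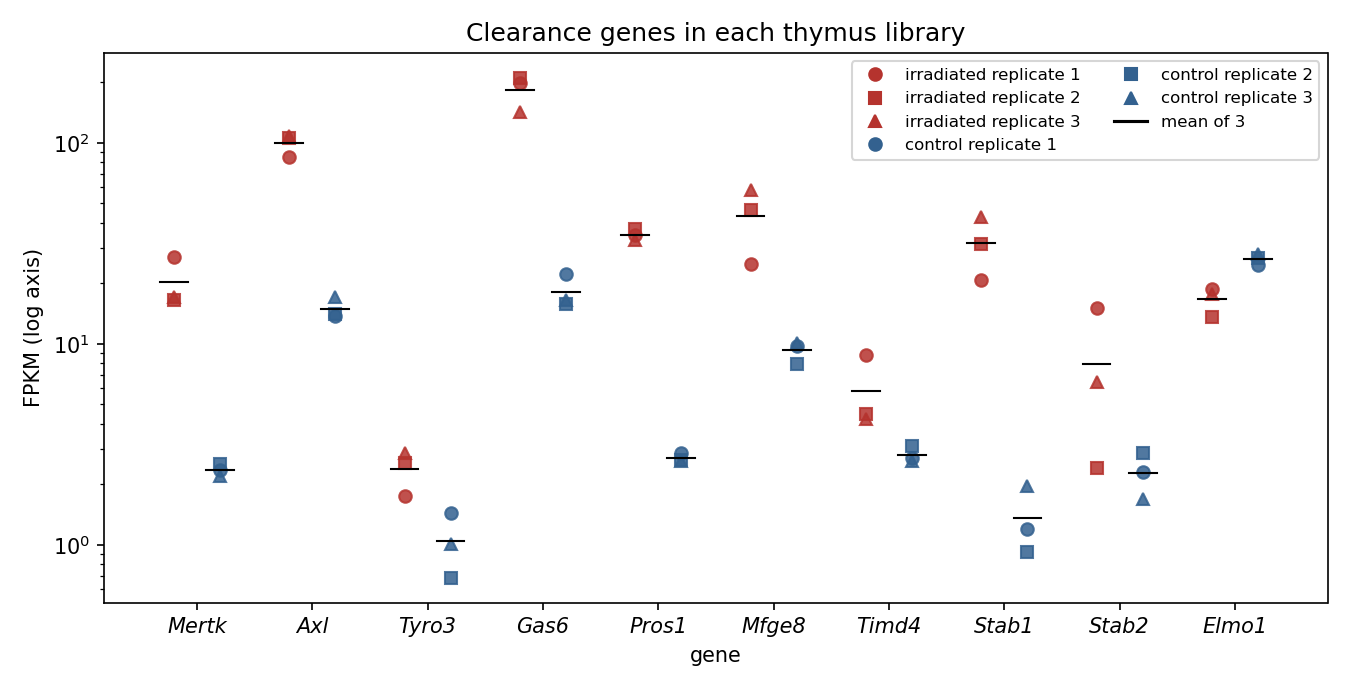
FPKM of each clearance gene in 3 irradiated and 3 control thymus libraries on a log axis; symbols are libraries and bars are means. Gas6 lies at 142 to 210 FPKM in irradiated libraries, Stab2 spans 2.40 to 15.0 FPKM, and Elmo1 is the member whose irradiated libraries all lie below the controls.

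The libraries bear on each of these values. Genes at 1 FPKM or more numbered 12853 to 13711 in irradiated and 11274 to 11453 in control libraries. Summed FPKM of 11 double-positive thymocyte markers was 65.5 to 126 in irradiated thymus and 2157 to 2475 in control thymus, which fits the labelled tissue, and all 11 fell. Summed FPKM of 14 macrophage markers was 991 to 1176 in irradiated and 146 to 214 in control libraries, and all 14 rose (12 after quantile normalization). Vsig4 and Marco were listed at 0 in control replicate 1. Summed fibroblast markers were at 514 to 582 FPKM in irradiated and 66.0 to 87.8 FPKM in control libraries, and endothelial markers at 40.8 to 159 FPKM in irradiated and 9.10 to 10.3 FPKM in control libraries. In whole tissue, fewer cells of a type and less RNA per cell cannot be told apart, nor can more of another type and a higher level in each of its cells. Irradiated replicate 1 had the lowest endothelial sum (40.8 FPKM) and irradiated replicate 2 stood out in airway (3041 FPKM), erythroid (5706 FPKM) and fat cell markers (1643 FPKM). In irradiated replicates 1 and 3 airway markers were at 45.3 and 44.7 FPKM, against 3.28 to 4.06 FPKM in controls. Fat cell markers were at 84.4 and 679 FPKM there, against 18.3 to 51.7 FPKM in controls. Erythroid markers were at 0.990 and 914 FPKM there, against 41.5 to 118 FPKM in controls. Monocyte and neutrophil markers were at 58.2, 537 and 242 FPKM in irradiated replicates 1, 2 and 3, against 52.4 to 124 FPKM in controls. Skeletal muscle markers were at 6.25, 151 and 34.1 FPKM in the same libraries, against 6.17 to 6.85 FPKM in controls. The part of these libraries and markers in the results was not tested.

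Among the TAM receptors Mertk and Axl rose several-fold and Tyro3 much less. Mertk, the receptor that macrophages use to engulf apoptotic thymocytes (chromosome 2, 128698956 to 128802894), measured 26.9, 16.6 and 17.2 FPKM in irradiated replicates 1, 2 and 3, against 2.35, 2.53 and 2.19 FPKM in control replicates 1, 2 and 3. The groups were far apart and irradiated replicate 1 was the highest. Mertk rose by 3.02 ± 0.22 on the log2 scale (SE; adjusted p = 8.41e-05, limma), or by 2.79 without that library. Axl, which dendritic cells, fibroblasts and endothelium also express (chromosome 7, 25757273 to 25788705), measured 85.4, 106 and 109 FPKM in irradiated libraries, against 13.7, 14.1 and 17.1 FPKM in controls. Its irradiated libraries lay close together, with replicate 1 the lowest, and the rise was 2.73 ± 0.16 on the log2 scale (SE; adjusted p = 5.47e-05, limma).

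Tyro3, best known from the nervous system (chromosome 2, 119797733 to 119818104), had the lowest mean of the members in both groups. It measured 1.75, 2.56 and 2.85 FPKM in irradiated libraries, against 1.44, 0.686 and 1.01 FPKM in controls. The lowest irradiated value was close to the highest control value. About 71 fragments stood behind the lowest value and about 310 behind the highest. These counts were judged from the step that 1 fragment makes in FPKM times length among genes with 1 transcript. Its log2 fold change came to 1.14 ± 0.34 (SE; adjusted p = 0.0214, limma). After quantile normalization it was -0.16 (limma adjusted p = 0.681), after median-ratio scaling 0.78 (0.0697), and the call was lost without any one of irradiated replicate 2 or 3 or control replicate 2 or 3, at adjusted p of 0.0559 to 0.0759.

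Summed over the TAM receptors, expression was 122 ± 7.50 FPKM in irradiated thymus and 18.4 ± 1.66 FPKM in control thymus (SD, n = 3 each). Axl made up 81.3% ± 5.60 of that sum in irradiated and 81.3% ± 2.93 in control libraries, so its share differed by less than the spread. Tyro3 made up 1.93% ± 0.353 in irradiated and 5.73% ± 2.22 in control libraries. The log2 ratio of Mertk to Tyro3 was 3.02 ± 0.73 in irradiated and 1.15 ± 0.54 in control thymus (SD, n = 3 each), with no overlap and the smallest p that 3 against 3 libraries allow (exact two-sided permutation p = 0.1, adjusted p = 0.133 over 4 ratios). The log2 ratio of Mertk to Axl was -2.33 ± 0.58 in irradiated and -2.61 ± 0.26 in control thymus and overlapped (exact permutation p = 0.6). In irradiated replicate 1 it was -1.66, against -2.66 and -2.65 in the other irradiated libraries.

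The ligands Gas6 and Pros1 rose 10-fold and 12.5-fold. Gas6, which activates all the TAM receptors (chromosome 8, 13465374 to 13494490), measured 199, 210 and 142 FPKM in irradiated libraries, against 22.4, 15.7 and 16.5 FPKM in controls. Replicate 3 was the lowest irradiated library and still far above the controls. Gas6 rose by 3.32 ± 0.21 on the log2 scale (SE; adjusted p = 6.19e-05, limma). Pros1, protein S, an anticoagulant of plasma that also activates Mertk and Tyro3 (chromosome 16, 62854307 to 62929346), measured 34.8, 37.3 and 32.9 FPKM in irradiated libraries, against 2.87, 2.64 and 2.60 FPKM in controls. The values within each group were close. Its log2 fold change of 3.64 ± 0.13 (SE; adjusted p = 4.86e-05, limma) had the smallest SE of the members and was 3.60 to 3.69 when any library was left out.

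Gas6 exceeded Pros1 in every library. Gas6 made up 83.7% ± 2.23 of the summed FPKM of both ligands in irradiated thymus and 86.9% ± 1.56 in control thymus (SD, n = 3 each). The log2 ratio of Gas6 to Pros1 was 2.37 ± 0.23 in irradiated and 2.69 ± 0.20 in control libraries, with no overlap (difference -0.32, exact two-sided permutation p = 0.1, adjusted p = 0.133). With a pseudocount of 1 that difference was -0.02. Both ligands need carboxylation by a vitamin K-dependent enzyme, and 2 of 3 genes of that reaction rose: the carboxylase gene Ggcx, 6.74 ± 2.58 FPKM in irradiated and 2.25 ± 0.517 FPKM in control thymus, and Vkorc1, which recycles vitamin K, 14.3 ± 5.99 FPKM in irradiated and 3.83 ± 0.942 FPKM in control thymus (SD, n = 3 each; limma adjusted p = 0.00777 for Ggcx and 0.00221 for Vkorc1). The call of Ggcx was lost after quantile normalization (0.133), and Vkorc1l1 was at -0.15 (0.676). With 42.4% of all tested genes higher, a count over 3 genes says little.

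**Figure D2:**
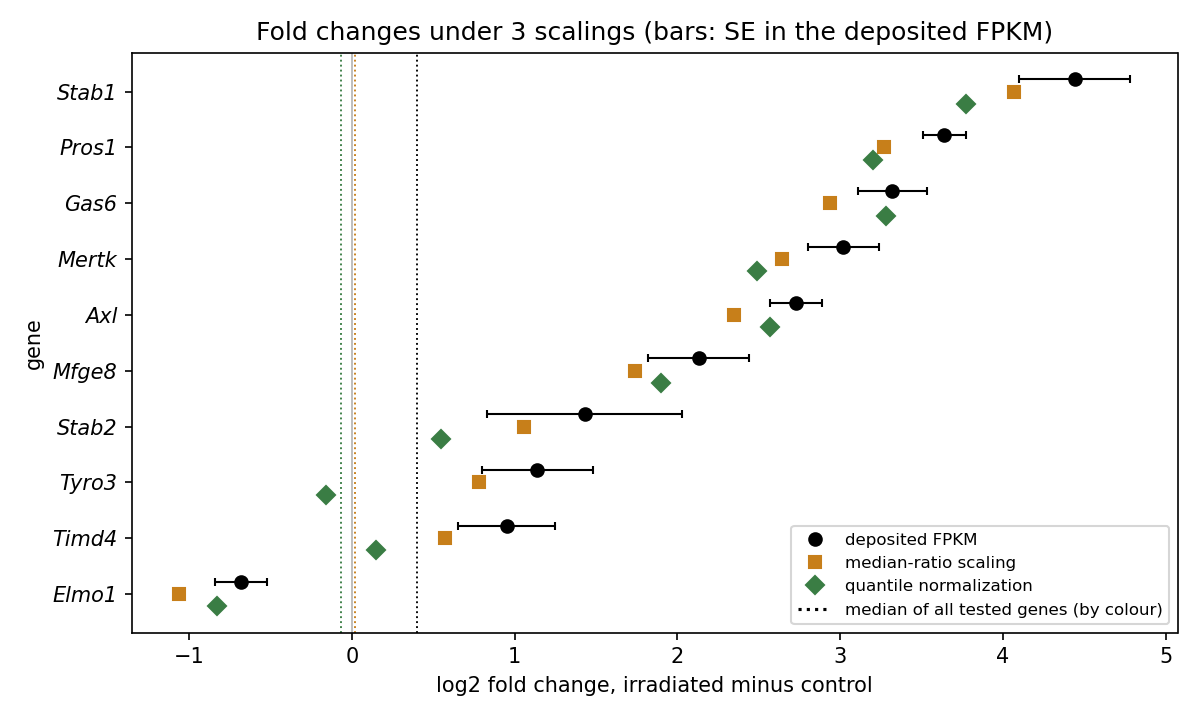
Log2 fold change of each clearance gene, irradiated minus control, in the deposited FPKM (circles, bars are SE) and after median-ratio scaling (squares) and quantile normalization (diamonds); dotted lines are the medians of all tested genes. The 6 genes from Stab1 to Mfge8 stay at 1.74 or more under each, while Tyro3 goes to -0.16 and Timd4 to 0.15 after quantile normalization.

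Mfge8, the secreted bridge between phosphatidylserine and integrins (chromosome 7, 79133768 to 79149060), rose. It measured 24.9, 46.1 and 58.2 FPKM in irradiated libraries, against 9.80, 7.92 and 10.1 FPKM in controls. The irradiated libraries spread widely, with replicate 1 the lowest, and all lay above the controls. Mfge8 was up by 2.13 ± 0.31 on the log2 scale (SE; adjusted p = 0.001, limma). Of the integrin subunits that receive Mfge8, Itgb5 measured 33.0, 49.7 and 51.7 FPKM in irradiated and 2.79, 3.27 and 3.59 FPKM in control libraries (log2 fold change 3.74 ± 0.21, limma adjusted p = 5.42e-05). Its partner Itgav rose by 1.19 (adjusted p = 0.00754), while Itgb3 was at 0.55 and overlapped (0.142). Without irradiated replicate 1 Itgb3 was at 0.85 (adjusted p = 0.00619).

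The direct phosphatidylserine receptors differed widely in size of change. Timd4, a receptor of long-lived resident macrophages (chromosome 11, 46810800 to 46844332), measured 8.80, 4.47 and 4.22 FPKM in irradiated libraries, against 2.72, 3.08 and 2.62 FPKM in controls. The groups did not overlap, and irradiated replicate 1 was well above the others. Its log2 fold change of 0.95 ± 0.30 (SE; adjusted p = 0.0274, limma) was 0.61 without irradiated replicate 1. The call was lost without any one of the controls (adjusted p of 0.0611 to 0.0831), after quantile normalization (0.15, adjusted p = 0.755), after median-ratio scaling (0.57, 0.161) and after scaling to equal summed FPKM (0.85, 0.0742).

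Stab1, a scavenger receptor of macrophages and sinusoidal endothelium (chromosome 14, 31139013 to 31168641), had the largest rise of the 10. It measured 20.8, 31.2 and 42.7 FPKM in irradiated libraries, against 1.20, 0.924 and 1.96 FPKM in controls. All irradiated libraries were at least several-fold above the highest control. Stab1 rose by 4.44 ± 0.34 on the log2 scale (SE; adjusted p = 0.000106, limma), a 21.7-fold difference that exceeded the fold change of 99.5% of tested genes. Stab2, its relative of sinusoidal endothelium (chromosome 10, 86841198 to 87008025), measured 15.0, 2.40 and 6.48 FPKM in irradiated libraries, against 2.29, 2.87 and 1.70 FPKM in controls. Irradiated replicate 2 lay inside the control range, and the groups overlapped. At 1.43 ± 0.60 on the log2 scale Stab2 did not pass (SE; adjusted p = 0.0738, limma). Without irradiated replicate 2 it was 2.09 (adjusted p = 0.00605), and without irradiated replicate 1 it was 0.80.

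Stab1 exceeded Stab2 in every irradiated library, and Stab2 exceeded Stab1 in control replicates 1 and 2. Stab1 made up 79.3% ± 18.6 of the summed FPKM of both in irradiated and 37.4% ± 14.9 in control libraries (SD, n = 3 each), and the log2 ratio of Stab1 to Stab2 was 2.27 ± 1.63 in irradiated and -0.74 ± 0.88 in control libraries. The ratios did not overlap (exact two-sided permutation p = 0.1, adjusted p = 0.133), although irradiated replicate 1 (0.47) came close to control replicate 3 (0.20). Among irradiated libraries replicate 1 was the highest for Stab2, Timd4, Mertk and Elmo1 and the lowest for Stab1, Mfge8, Axl and Tyro3. The endothelial marker sum was lowest in that same library. Of 9 markers of lymphatic and sinusoidal endothelium 6 were tested and 4 rose (Lyve1, Flt4, Ccl21a and Fcgr2b; 2 after quantile normalization), and the sum of all 9 was 261 to 572 FPKM in irradiated and 39.2 to 48.5 FPKM in control libraries, lowest of the irradiated ones in replicate 1. Most of that sum was Ccl21a alone, at 239, 426 and 525 FPKM in irradiated libraries and 35.4, 35.7 and 43.1 FPKM in controls. The sum therefore says little about the other markers. Reln and Mmrn1 overlapped between the groups and were not called (limma adjusted p = 0.136 and 0.0891). Prox1, Clec4g and Oit3 averaged under 0.5 FPKM. Whether Ccl21a and Fcgr2b mark this endothelium in thymus was not tested. The part of these cells in the values of Stab1 and Stab2 was not tested.

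Patterns over the 6 libraries were compared by the root mean square difference of log2 values centred on each gene's mean, among 13500 named genes. The nearest to Stab1 were Clu (0.306), Anxa8 (0.311) and the macrophage gene Ms4a4a (0.320). Among the nearest to Mertk were the transcription factor gene Meis2 (0.128) and Klhl29 (0.138). Stab2 was added after its values were seen, and its nearest were Itgad (0.250), an integrin subunit of splenic red pulp macrophages, the eosinophil-associated ribonuclease gene Ear2 (0.371) and the iron exporter gene Slc40a1 (0.372). Itgad measured 9.55, 2.51 and 5.51 FPKM in irradiated libraries, against 1.94, 2.28 and 1.82 FPKM in controls, in the same order of irradiated libraries as Stab2. These differences are descriptions over 6 libraries.

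Elmo1 was the member that fell. The gene (chromosome 13, 20090619 to 20608353) measured 18.8, 13.5 and 17.6 FPKM in irradiated libraries, against 24.8, 26.7 and 28.0 FPKM in controls. All irradiated libraries lay below the lowest control. The difference was -0.68 ± 0.16 on the log2 scale (SE; adjusted p = 0.00831, limma), and it was -1.06 after median-ratio scaling and -0.83 after quantile normalization. Its nearest patterns were those of Atf1 (0.035), Nono (0.047) and Rexo4 (0.054), genes of transcription and RNA handling in most cells. An antisense gene, Gm32036, shares 403 of the 12580 exon bases of Elmo1 in GENCODE M21, and since strand use is not given in the sources used here, reads there cannot be told apart. Stab1, Stab2 and Gas6 share 112, 141 and 34 exon bases with genes on the other strand.

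Of 20 other genes of engulfment signalling 11 rose and 4 fell, shares near the 42.4% and 20.9% of all tested genes. Dock1, the exchange factor that works with Elmo1 in engulfment, measured 22.3, 23.6 and 23.3 FPKM in irradiated libraries, against 3.81, 2.87 and 2.56 FPKM in controls (log2 fold change 2.88 ± 0.18, limma adjusted p = 5.82e-05). Dock2, the related exchange factor of lymphocytes and other blood cells, measured 46.5, 37.6 and 50.9 FPKM in irradiated libraries, against 80.3, 80.0 and 93.3 FPKM in controls (-0.92 ± 0.16, adjusted p = 0.00253). The other genes that fell were Rac2, the Rac GTPase of blood cells (-0.66), Vav1, an exchange factor of blood cells (-0.60), and the adaptor gene Crkl (-0.37). Without any one of irradiated replicate 2, control replicate 2 or control replicate 3, 2 of the 20 fell. Src (2.57), Arhgef16 (2.38), which binds Elmo proteins, Trio (1.41), the relative Elmo3 (0.95) and the widely expressed Rac1 (0.64) rose, and Elmo2 was at 0.36 (0.0538).

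In order of mean level, irradiated thymus had Gas6 at 183 ± 36.7 FPKM, Axl at 99.8 ± 12.6, Mfge8 at 43.1 ± 16.9, Pros1 at 35.0 ± 2.20, Stab1 at 31.6 ± 10.9, Mertk at 20.2 ± 5.81, Elmo1 at 16.6 ± 2.77, Stab2 at 7.97 ± 6.44, Timd4 at 5.83 ± 2.58 and Tyro3 at 2.39 ± 0.565 FPKM (SD, n = 3). The libraries of neighbours from Mfge8 down to Timd4 overlapped, while Gas6, Axl and Tyro3 stood clear of their neighbours. Control thymus had Elmo1 first at 26.5 ± 1.66 FPKM, then Gas6 at 18.2 ± 3.64, Axl at 15.0 ± 1.84, Mfge8 at 9.27 ± 1.18, Timd4 at 2.81 ± 0.243, Pros1 at 2.70 ± 0.147, Mertk at 2.35 ± 0.170, Stab2 at 2.29 ± 0.586, Stab1 at 1.36 ± 0.537 and Tyro3 at 1.05 ± 0.378 FPKM. There the overlapping neighbours were Gas6 with Axl, Timd4 with Pros1, and each neighbouring pair from Mertk down to Tyro3. By rank, Elmo1 stood 7 of 10 in irradiated and 1 of 10 in control thymus, Timd4 stood 9 in irradiated and 5 in control thymus, and Stab1 stood 5 in irradiated and 9 in control thymus.

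Set against the 14 macrophage markers of the same library, the members differed from one another. This comparison does not depend on scaling between libraries except through the pseudocount, which weighs on markers near 0. The measure is log2(FPKM + 0.1) of the gene minus the mean of the markers. Stab1 was at 0.37 ± 0.23 in irradiated and -0.98 ± 0.46 in control libraries (SD, n = 3 each). Mertk was at -0.24 ± 0.82 in irradiated and -0.18 ± 0.31 in control libraries, a difference of -0.07. Gas6 was at 2.95 ± 0.62 in irradiated and 2.70 ± 0.52 in control libraries, and both genes overlapped between the groups. Pros1 (difference 0.56) and Axl (-0.35) also overlapped between the groups, and the difference of Axl turned to 0.17 with a pseudocount of 1.

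Timd4 was at -2.07 ± 1.01 in irradiated and 0.07 ± 0.28 in control libraries. Tyro3 was at -3.27 ± 0.12 in irradiated and -1.33 ± 0.69 in control libraries. Mfge8 was at 0.80 ± 0.25 in irradiated and 1.75 ± 0.34 in control libraries, and Elmo1 at -0.50 ± 0.63 in irradiated and 3.26 ± 0.17 in control libraries. Stab1, Timd4, Tyro3, Mfge8 and Elmo1 were the members whose groups did not overlap on this measure, each at an exact two-sided permutation p = 0.1 and an adjusted p = 0.2 over the 10 genes. That is the smallest p that an exact test of 3 against 3 libraries can give. Timd4, Tyro3 and Mfge8 rose in FPKM (0.95, 1.14 and 2.13 on the log2 scale) but by less than the markers, so their lower place is not a fall. The share of all genes that lie lower or do not overlap on this measure was not computed. Stab2 was at -1.90 ± 1.68 in irradiated and -0.25 ± 0.52 in control libraries and overlapped.

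**Figure D3:**
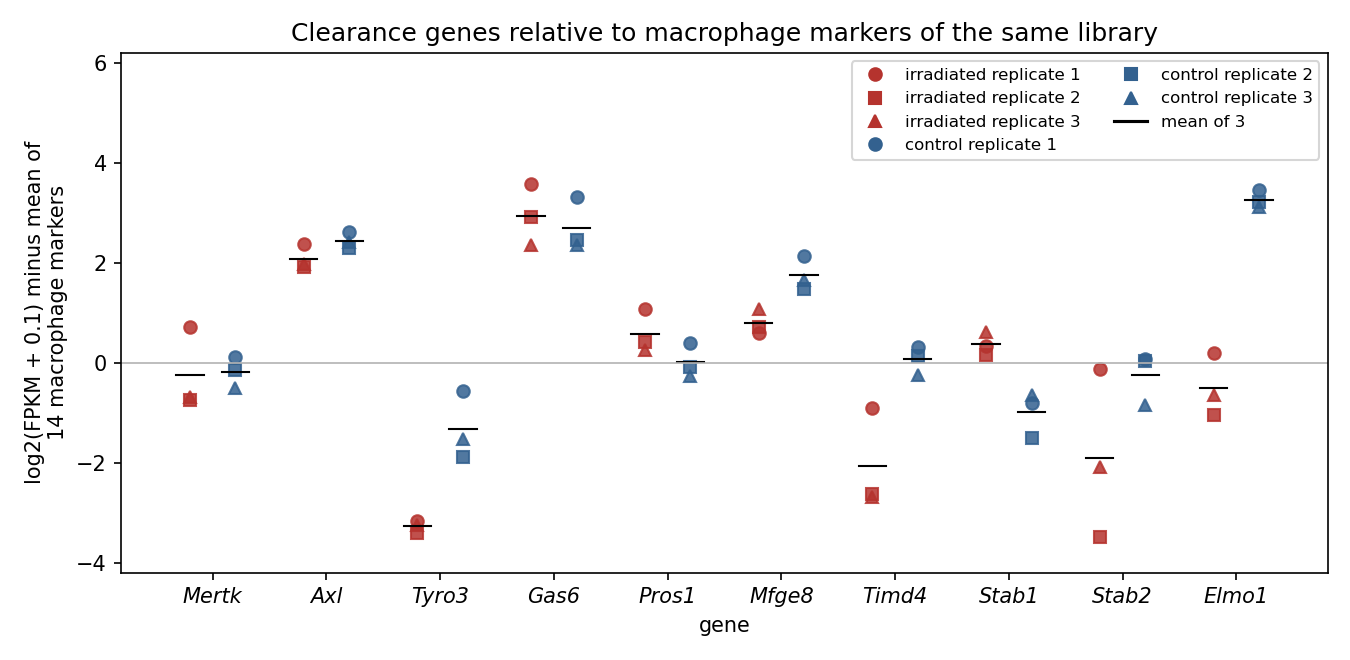
Log2(FPKM + 0.1) of each clearance gene minus the mean of 14 macrophage markers in the same library, in 3 irradiated and 3 control libraries; bars are means. Stab1 lies higher in the irradiated libraries, Tyro3, Mfge8, Timd4 and Elmo1 lie lower, and Mertk and Gas6 overlap. All 14 markers rose, so a gene that rose less than they did on average lies lower here.

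Non-coding transcripts of 8 members are listed in a deposited lncRNA table, 39 in all, mostly retained introns. They share exons with the coding transcripts, so their values are not independent of those above. Summed to genes, 5 members averaged at least 0.5 FPKM and were tested within that table, where 15.8% of 9421 genes were higher and 30.1% lower. Of the 5, those of Stab1 rose (14.4 ± 5.06 FPKM in irradiated and 0.459 ± 0.341 FPKM in control thymus, SD, n = 3 each; log2 fold change 4.81, limma adjusted p = 0.000252), as did those of Axl (2.10, 0.000366) and Mfge8 (0.81, 0.0352). The Stab1 transcripts were led by a retained-intron form of 18 exons at 4.30, 8.03 and 11.9 FPKM in irradiated libraries, against 0, 0 and 0.196 FPKM in controls. Non-coding Elmo1 transcripts measured 4.65, 2.08 and 2.85 FPKM in irradiated libraries, against 7.15, 6.43 and 7.76 FPKM in controls, a fall of the same direction as in the coding table (-1.20, 0.0134). Stab2 did not pass (0.83, 0.460). The call of non-coding Mfge8 was lost without any one of irradiated replicate 2 or 3 or control replicate 2 or 3 (limma adjusted p of 0.0553 to 0.139), and that of non-coding Elmo1 without control replicate 3 (0.0542).

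Beyond the members, 128 genes of 9 lists that cover recognition, uptake and digestion of corpses gave 118 tested genes, of which 78 rose and 10 fell. Over all tested genes 42.4% were higher and 20.9% lower, to be set beside this count and those of the lists below. Of 25 other engulfment receptors 21 were tested and 18 rose, with a median of 3.00 on the log2 scale, and none fell in the deposited scale, while 1 fell after median-ratio scaling or quantile normalization. Those with the smallest adjusted p, which are not the largest rises of the list, were Lrp1, a large endocytic receptor that binds calreticulin on corpses (114 ± 28.1 FPKM in irradiated and 5.95 ± 0.319 FPKM in control thymus, SD, n = 3 each here and for the genes below; log2 fold change 4.20), the Mfge8 receptor subunit gene Itgb5, and Cd300lf (3.59) and Cd300a (2.63), receptors for lipids of dying cells. Adgrb1, Havcr1, Megf10 and Olr1 averaged under 0.5 FPKM and were not tested. Of these, Havcr1 had the lower mean in irradiated thymus (0.170 FPKM, against 0.431 FPKM in control thymus). Marco, Cd300lb and Scarf1 passed the filter only through their irradiated libraries, with control means of 0.0542, 0.132 and 0.184 FPKM. With no filter on low values 19 receptors rose and 1 fell. With at least 1 FPKM in 3 libraries 16 rose and none fell. Of 16 other bridges and opsonins 11 were tested and 9 rose, with a median of 2.82. The complement genes C1qa (263 ± 5.37 FPKM in irradiated and 36.7 ± 3.85 FPKM in control thymus), C1qc (2.88) and C1qb (2.50) and the lipid-binding Anxa1 (2.37) had the smallest adjusted p, while Thbs1 (4.53), Fn1 (3.78) and C3 (3.69) had larger rises. The same markers of macrophages given above rose with these lists, and Marco is in both a receptor list and the marker list. The part of these cells in the lists' values was not tested.

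Genes that digest corpses and export their lipids rose in 20 of 26 cases and fell in none (1 after median-ratio scaling), with a median of 1.42. Over all tested genes 42.4% were higher and 20.9% lower, with a median of 0.40. Nr1h3, the liver X receptor that senses sterols and is known to induce Mertk and Abca1, measured 18.9, 23.1 and 30.8 FPKM in irradiated libraries, against 2.50, 3.70 and 4.03 FPKM in controls (log2 fold change 2.79 ± 0.25, limma adjusted p = 0.00016). Its partner Rxra (2.95), the cholesterol exporter gene Abca1 (2.57) and the lysosomal cholesterol carrier gene Npc2 (2.01) rose as well.

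Of 12 genes of find-me signals and their receptors 6 rose and 1 fell, with 2 higher after quantile normalization, and of 9 tested genes of phosphatidylserine exposure 4 rose and 3 fell. Both counts are of few genes and lie near the 42.4% higher and 20.9% lower of all tested genes. Those of the find-me list with the smallest adjusted p were P2ry6 (3.46) and P2ry2 (2.78, and 1.21 with an adjusted p of 0.0772 after quantile normalization), receptors for nucleotides, and the chemokine gene Cx3cl1 (3.18), while Gpr132, a receptor linked to lysophospholipids, fell by 1.40 on the log2 scale. P2ry2 was at only 0.216, 0.129 and 0.198 FPKM in controls. Of the exposure genes, Plscr1 (2.23), Xkr4 (2.13), Atp11a (1.04) and Plscr3 (0.99) rose, and in the authors' deposited table Plscr3 did not pass (0.49, adjusted p = 0.215). Xkr4 was at only 0.0987, 0.275 and 0.206 FPKM in controls, near the pseudocount of 0.1. After quantile normalization 3 genes of this list were called higher. Among those that fell were Ano6, a scramblase that calcium switches on (-0.96), and Atp11b (-0.57). Xkr8, the scramblase that caspases switch on, was at 0.64 (0.108), at -0.79 after quantile normalization (0.0431) and at 0.84 without irradiated replicate 1 (0.029).

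**Figure D4:**
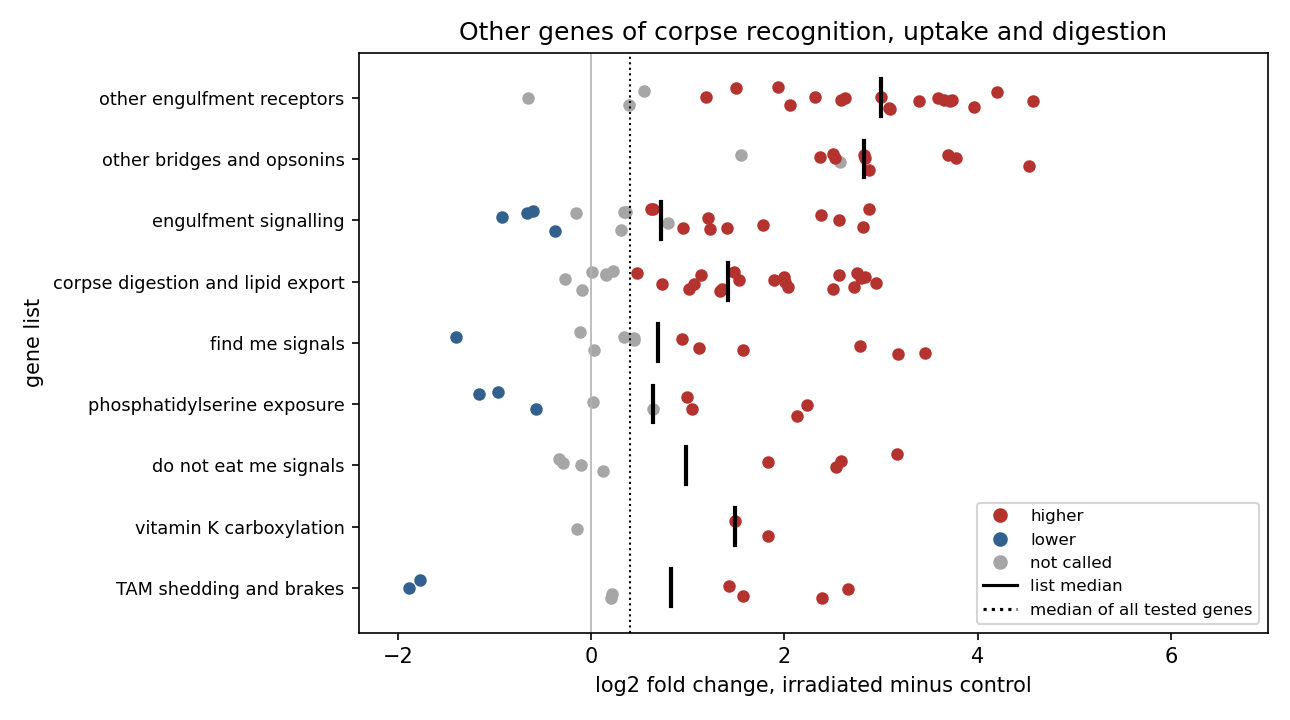
Log2 fold change, irradiated minus control, of each tested gene in 9 lists of clearance genes; colour gives the limma call, short bars are list medians and the dotted line is the median of all tested genes (0.40). The receptor and bridge lists have medians of 3.00 and 2.82, and genes that fell are found in the lists of signalling, find-me signals, phosphatidylserine exposure, and TAM shedding and signalling brakes.

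Among 8 genes that restrain uptake 4 rose and none fell, while 2 fell after median-ratio scaling and 1 after quantile normalization, against 42.4% higher and 20.9% lower of all tested genes. Sirpa, the phagocyte receptor of the inhibitory signal Cd47, measured 36.6 ± 8.37 FPKM in irradiated and 6.80 ± 4.01 FPKM in control thymus (log2 fold change 2.53, limma adjusted p = 0.0012). Cd47 itself overlapped, at 61.9, 85.5 and 88.0 FPKM in irradiated libraries, against 83.9, 80.5 and 85.3 FPKM in controls (-0.10, 0.629), and was at -0.49 after median-ratio scaling (0.0284). The inhibitory receptor gene Lilrb4a (3.17), the urokinase receptor gene Plaur (2.59) and B2m (1.83), which encodes a part of MHC class I, rose. Of 8 genes linked to TAM receptor shedding or to brakes on signalling, not all of which act on the TAM receptors themselves, 4 rose and 2 fell. These shares are again near those of all genes. Those that fell were Cbl, a ubiquitin ligase that directs receptors to breakdown (24.4 ± 1.87 FPKM in irradiated and 93.8 ± 30.6 FPKM in control thymus), and Socs1, a brake on cytokine signals (-1.77). Socs3 (1.43), Ubash3b (1.57), Twist1 (2.39) and Twist2 (2.66) rose, and after quantile normalization 2 genes of the list were called higher. Twist2 was at 0.0499, 0.0776 and 0.0180 FPKM in controls, below the pseudocount of 0.1. Twist1 was near it, at 0.342, 0.159 and 0.154 FPKM in controls. With at least 1 FPKM in 3 libraries 2 genes of the list were called higher. Adam17, the protease that sheds Mertk, was at 0.21 (0.356) and at 0.39 without irradiated replicate 1 (0.0404).

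The authors' deposited table holds its own DESeq2 comparison, in which 46.4% of 19142 genes had an adjusted p under 0.05. It differed from the limma calls in 3 members. In the authors' deposited table Stab2 passed, with a log2 fold change of 1.99 (adjusted p = 2.97e-05), Tyro3 did not (1.02, 0.0573) and Timd4 did not (0.82, 0.132). For the other 7 the authors' deposited table gave the same direction and side of the threshold, from 4.09 for Stab1 to -0.76 for Elmo1.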

How the data were processed

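Libraries of polyadenylated RNA from 3 irradiated and 3 control thymuses were grouped by their labels. The authors deposited FPKM values per library for mRNA and lncRNA transcripts, and per the submitters' processing notes used DESeq2 1.10.1. Aligner, counter, strand use and build are not stated in the sources used here. All 19 coding and 39 non-coding member transcripts had the positions of GENCODE M21 (GRCm38). In the mRNA table all 14275 genes with several transcripts repeat 1 set of values, so 1 value per gene was used, and lncRNA transcripts were summed to genes.

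The design named limma for FPKM: log2(FPKM + 0.1), genes averaging at least 0.5 FPKM, group only, moderation with an abundance trend (limma 3.58.1, R 4.3.3), and Benjamini-Hochberg adjustment over all genes of a table. Log2 ratios were compared with exact permutation tests. The members and lists were chosen with earlier results of these data known. Named were all members, the 4 called genes with the smallest adjusted p of each list, genes whose role pairs with a member, and the 3 nearest patterns; others were named after their values were seen, to complete a count or a comparison, and some genes that the rule names are not reported here. Same-numbered libraries did not deviate together. Alternatives were other pseudocounts, filters, scalings, a replicate block and each library left out.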

Additional observations from a re-analysis of the deposited data

How the results depend on the processing

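Mertk, Axl, Gas6, Pros1, Mfge8, Stab1 and Elmo1 kept their direction and side of the threshold under every alternative tried. Tyro3 (log2 fold change 1.14) was at -0.16 after quantile normalization, 0.78 after median-ratio scaling and 1.02 in the authors' deposited table. Timd4 (0.95) was at 0.15, 0.57 and 0.82 there and at 0.85 after scaling to equal summed FPKM. Stab2 (1.43) was at 1.99 in the authors' deposited table. The cause was not tested. Over all genes, quantile normalization gave 3501 higher and 4403 lower and median-ratio scaling 4655 and 4558. With 1 library left out, members ranged from 2.79 to 3.14 (Mertk), 2.67 to 2.84 (Axl), 0.90 to 1.38 (Tyro3), 3.22 to 3.50 (Gas6), 3.60 to 3.69 (Pros1), 1.87 to 2.48 (Mfge8), 0.61 to 1.14 (Timd4), 4.19 to 4.72 (Stab1), 0.80 to 2.09 (Stab2) and -0.77 to -0.54 (Elmo1), members higher from 6 to 8, and non-coding members lower from 0 to 1, with 0 without control replicate 3 (Elmo1 at -1.14, limma adjusted p = 0.0542). The call of non-coding Mfge8 was lost in 6 alternatives, at adjusted p of 0.0506 to 0.139, among them the replicate block, and non-coding Stab2 ranged from -0.07 (without irradiated replicate 1) to 2.0 (without irradiated replicate 2). The Gas6 to Pros1 difference was -0.02 with a pseudocount of 1. Relative to macrophage markers, Axl was at -0.62 with a pseudocount of 0.01 and 0.17 with 1, and Mfge8 at -0.46 with 1. Among genes not called, Cd47 ranged from -0.19 to 0.06 with 1 library left out (0.06 without irradiated replicate 1), Adam17 was at -0.17 after median-ratio scaling, and Itgb3 at -0.00 and Xkr8 at -0.79 after quantile normalization. Without irradiated replicate 1, Itgb3 (0.85, limma adjusted p = 0.00619), Adam17 (0.39, 0.0404) and Xkr8 (0.84, 0.029) passed. With the replicate block, which is not a pairing the labels give, 5693 genes were higher and 2662 lower, and members kept their calls (Tyro3 adjusted p = 0.0499). Correlations of same-numbered libraries' deviations were 0.0596, -0.0433 and 0.0516.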
